A study of Mus musculus with 12 samples.

Results

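The mitosis genes analysed here are 43 genes whose proteins carry a cell through division: the cyclin-dependent kinase Cdk1 with its cyclins, the mitotic kinases, the spindle checkpoint, the kinetochore, spindle motors, condensin and the cytokinesis machinery, together with the proliferation marker Mki67. They were picked by symbol from a table of 12158 genes, and all 43 were present. All of them also passed a filter on low values (a mean above -2 log2 RPKM over all libraries), which left 12102 genes. RPKM counts reads per unit of transcript length and per unit of the library's mapped reads, so levels can be set side by side between genes, and 1 unit on the log2 scale is a doubling.

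The study compared bulk forebrain of mice carrying 1 mutated copy of the chromatin remodeller gene Chd8 in the germline (Chd8+/del5, labelled Het) with that of matched WT littermates, all of strain C57BL/6N. Forebrain was dissected at embryonic days e12.5, e14.5 and e17.5, at birth (P0) and from adults (labelled P56), and polyA RNA was sequenced. The labels name 10 RNA samples, a WT and a Het sample at each of the 5 stages, whereas the expression table has 44 columns: 8 libraries at e12.5, 9 at e14.5, 10 at e17.5, 11 at P0 and 6 in the adult. Each column name gives the stage but no genotype, so no library was assigned to WT or Het, and the genotypes are not compared. All values are therefore given per stage over libraries of both genotypes, as the lowest, median and highest library, without a mean, SD or p-value. Library numbers follow the column order at each stage. Nothing in the labels says which libraries share an animal or litter. Chd8 itself lay between 3.90 and 4.96 log2 RPKM at e12.5, between 3.62 and 4.69 at e14.5, between 3.70 and 4.50 at e17.5, between 3.69 and 4.60 at P0 and between 3.08 and 4.15 in the adult. Emx1, a transcription factor of the dorsal forebrain, was present at every stage, with medians of 5.38, 5.51, 4.75, 4.92 and 4.71 log2 RPKM in the order of age. The e12.5 libraries were read as 100 bp pairs and all others as single 50 bp reads, so any step from e12.5 holds that difference too. A call of lower or higher below means that the ranges of 2 stages over their libraries did not overlap.

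Mitotic genes are made in pulses. In cycling cells their mRNAs build up through G2 and peak in mitosis, and in cells that leave the cycle they are held off by the DREAM complex, which sits on promoter elements called cell cycle genes homology regions (CHR). The same promoters often hold CCAAT boxes, bound by the factor NF-Y. In the embryonic forebrain the dividing cells are radial glia at the ventricle and the intermediate progenitors that derive from them, whereas the neurons they give rise to do not divide.

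RefSeq promoter windows, from 250 bases before to 50 bases after a gene's start in build GRCm38.p6, were found for 37 of the 43 mitosis genes and for 9180 of the 12102 genes that passed the filter. The CHR was searched as TTTGAA and the CCAAT box as CCAAT, both on either strand. At least 1 CHR match was present in 29 of the 37 windows (78.4%), against 10.8% of all windows. CCAAT was present in 27 (73.0%), against 38.9%, and both motifs together in 24 (64.9%), against 4.63%. The CHR and CCAAT matches overlapped each other in 0 of the members. An E2F motif, searched as TTTGGCGC, TTTCGCGC, TTTCCCGC and TTTGCCGC, was found in 4 windows (10.8%), against 4.19%. Of the 39 CHR matches in the mitosis genes, 71.8% began within 50 bases of the start on either side, with a median first base at -5, and the same held for 24.5% of the 1099 matches in all windows, whose median was -137. These are matches of letters and not measured binding sites. The 6 windows shown here were chosen after their matches were seen, for the range of arrangements they cover, with CHR and CCAAT matches in capitals in either orientation. Cdk1 (chr10:69352863-69353162, minus strand), the kinase that drives entry into mitosis, Ccnb2 (chr9:70421505-70421804, minus strand), a B-type cyclin that activates it, and Top2a (chr11:99024140-99024439, minus strand), the topoisomerase that untangles sister chromatids, hold several CCAAT boxes ahead of a CHR near the start. Mki67 (chr7:135716330-135716629, minus strand) has both of its CHR matches further upstream, Anln (chr9:22389157-22389456, minus strand) has 2 just inside the gene with no CCAAT box, and Mad2l1 (chr6:66534971-66535270, plus strand) has neither motif in this window.
Cdk1: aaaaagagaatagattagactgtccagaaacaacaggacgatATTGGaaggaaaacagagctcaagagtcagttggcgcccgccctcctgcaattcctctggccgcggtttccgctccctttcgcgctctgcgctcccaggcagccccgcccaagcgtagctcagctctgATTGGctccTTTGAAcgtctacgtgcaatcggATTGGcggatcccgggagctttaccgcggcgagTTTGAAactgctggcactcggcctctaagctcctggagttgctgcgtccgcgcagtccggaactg
Ccnb2: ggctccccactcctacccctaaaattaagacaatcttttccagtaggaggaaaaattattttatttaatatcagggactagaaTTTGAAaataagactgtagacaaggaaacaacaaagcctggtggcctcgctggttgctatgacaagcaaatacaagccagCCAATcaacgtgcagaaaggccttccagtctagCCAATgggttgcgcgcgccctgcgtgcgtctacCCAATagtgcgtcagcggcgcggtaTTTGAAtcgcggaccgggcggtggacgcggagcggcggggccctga
Top2a: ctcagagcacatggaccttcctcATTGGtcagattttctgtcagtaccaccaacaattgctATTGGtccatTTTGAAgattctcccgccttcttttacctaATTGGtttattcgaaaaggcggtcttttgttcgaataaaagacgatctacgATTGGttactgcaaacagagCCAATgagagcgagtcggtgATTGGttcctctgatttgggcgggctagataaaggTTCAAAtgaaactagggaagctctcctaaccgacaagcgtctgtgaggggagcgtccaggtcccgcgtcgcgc
Mki67: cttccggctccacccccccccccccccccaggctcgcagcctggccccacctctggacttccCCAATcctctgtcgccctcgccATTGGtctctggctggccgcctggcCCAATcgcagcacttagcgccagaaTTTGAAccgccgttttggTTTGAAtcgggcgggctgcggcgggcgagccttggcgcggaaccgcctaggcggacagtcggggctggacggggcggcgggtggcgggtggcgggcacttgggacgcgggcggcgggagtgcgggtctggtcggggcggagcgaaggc
Anln: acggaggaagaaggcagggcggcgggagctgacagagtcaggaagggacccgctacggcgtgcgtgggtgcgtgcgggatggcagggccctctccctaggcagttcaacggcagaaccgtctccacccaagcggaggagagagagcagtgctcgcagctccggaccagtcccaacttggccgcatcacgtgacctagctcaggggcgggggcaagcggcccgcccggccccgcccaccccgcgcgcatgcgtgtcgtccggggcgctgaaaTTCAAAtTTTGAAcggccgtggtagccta
Mad2l1: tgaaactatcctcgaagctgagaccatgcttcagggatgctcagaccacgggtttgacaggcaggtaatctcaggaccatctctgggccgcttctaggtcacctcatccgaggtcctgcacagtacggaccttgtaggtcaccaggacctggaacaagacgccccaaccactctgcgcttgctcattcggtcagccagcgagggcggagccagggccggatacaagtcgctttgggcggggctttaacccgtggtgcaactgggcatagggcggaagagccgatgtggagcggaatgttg

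The 8 members with a window but no CHR match (Ccnb1, Bub1, Mad2l1, Birc5, Cenpe, Nuf2, Nusap1 and Ncaph) differed between stages over a range that overlapped that of the 29 with one. From e14.5 to P0 their median difference was -2.06 (from -3.54 to -1.46), and that of the 29 was -2.32 (from -3.12 to -1.21). From P0 to the adult the medians were -2.80 and -2.92, and from e12.5 to e14.5 they were in the other order, -1.30 without a match and -1.13 with one. Other forms of the CHR were not searched, so a window without a TTTGAA match may still hold one.

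The mitosis genes were highest in the youngest forebrain and were lower at each later stage taken as a group. The median level of the 43 genes was 5.70 log2 RPKM at e12.5, 4.43 at e14.5, 3.05 at e17.5, 2.24 at P0 and -0.60 in the adult. Ube2c, the ubiquitin-conjugating enzyme that works with the anaphase-promoting complex (APC/C), was the highest at e12.5 (7.86), e14.5 (6.47) and e17.5 (5.0). At P0 the highest was the condensin subunit Ncapd2 (4.40). In the adult it was Anln (3.39), which encodes anillin, a scaffold of the contractile ring. The lowest medians were those of the kinesin Kif20b at e12.5 (3.71) and e14.5 (2.48) and of Aspm, a spindle pole protein whose human counterpart is a microcephaly gene, at e17.5 (1.26), P0 (0.35) and in the adult (-3.72). No member had a median below 0 before the adult, where 28 did.

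**Figure D1:**
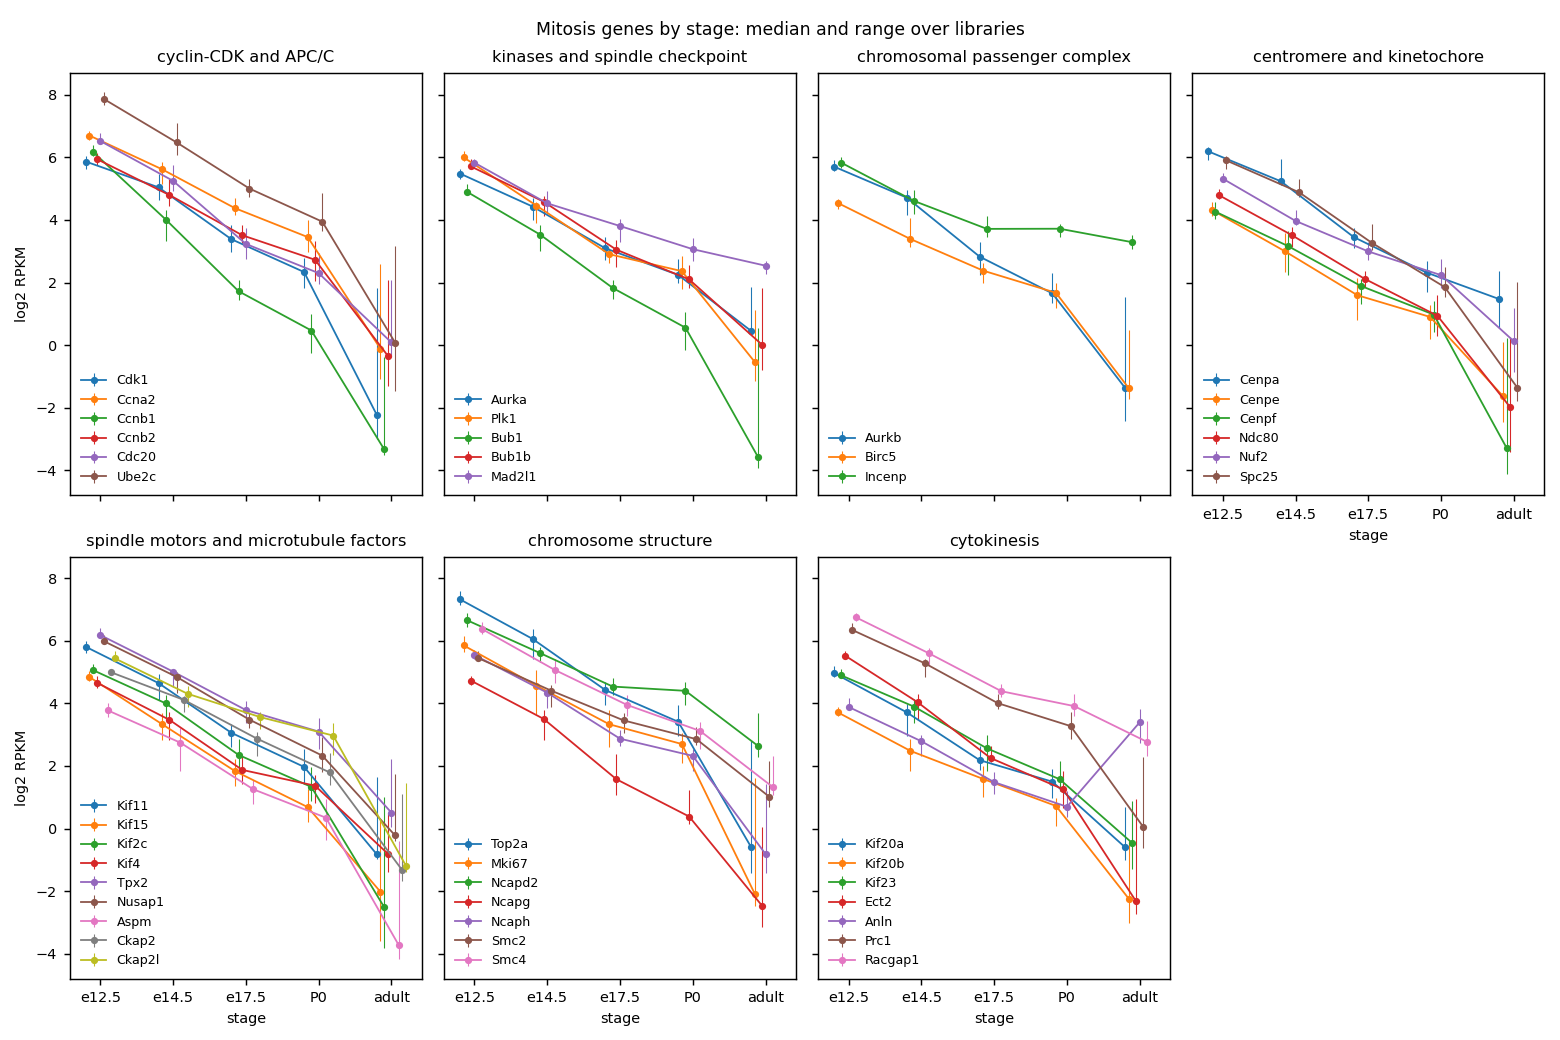
Level of each mitosis gene in log2 RPKM (y axis) by stage (x axis), in 7 panels by role. Points are stage medians and bars run from the lowest to the highest library (8, 9, 10, 11 and 6 libraries); nearly all lines descend, Anln turns upward in the adult to 3.39, and Incenp is level from e17.5 (3.71) to P0 (3.72).

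From e12.5 to e14.5, 42 of the 43 genes were called lower and 0 higher, where 22.3% of all genes were called lower and 23.1% higher. The median difference of the members was -1.16, against 0.03 over all genes. From e14.5 to e17.5, 41 were called lower and 0 higher, with backgrounds of 12.1% lower and 13.1% higher, and the median difference was -1.39, against -0.03. From e17.5 to P0, 16 were called lower and 0 higher, with backgrounds of 6.28% and 4.89%, and the median difference was -0.91, against 0.00 over all genes to 2 decimals. From P0 to the adult, 30 were called lower and 1 higher, with backgrounds of 25.2% and 29.3%, and the median difference was -2.89, against -0.01. Over the whole span from e14.5 to P0, within which read type was the same, all 43 were called lower, against 23.1% of all genes (22.7% were called higher), with a median difference of -2.19, against -0.04. In bulk tissue, fewer dividing cells and less RNA in each of them cannot be told apart. Among all genes, the sex-linked Xist and Ddx3y had the most extreme differences from e17.5 to P0 (4.61 and -4.79). They also did from P0 to the adult (-11.5 and 8.62). The part of the sexes of the animals in the steps was not tested. Over the 4 successive steps 8 members were called lower in all 4, 27 in 3 and 8 in 2. The same count was not made over all genes, so it describes the members only.

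**Figure D2:**
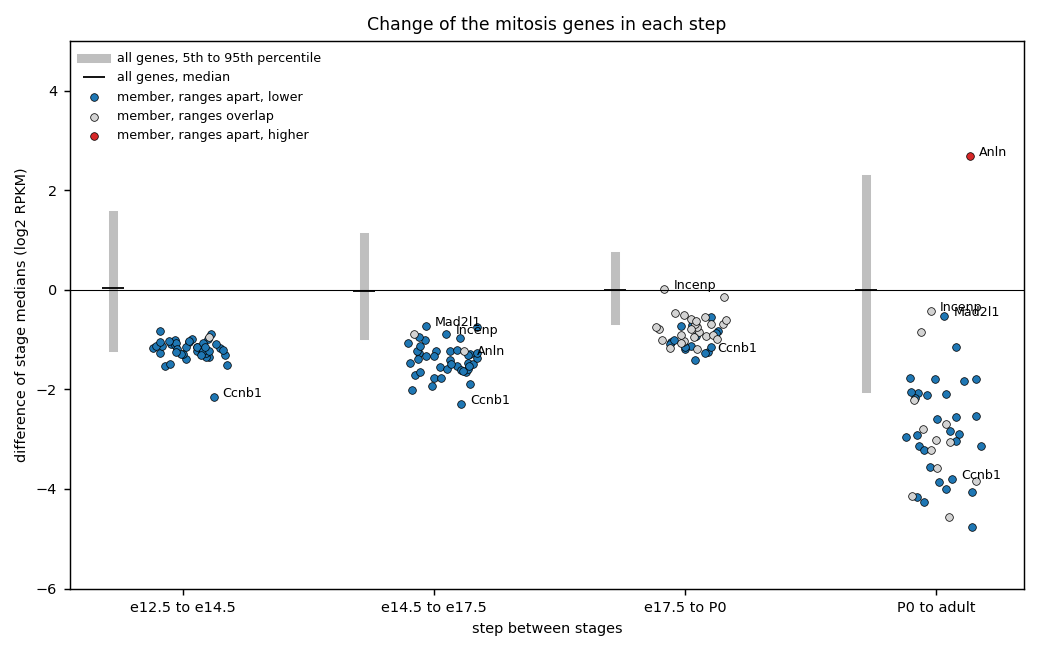
Difference of stage medians in log2 RPKM (y axis) for each of the 43 mitosis genes (points) in the 4 steps between stages (x axis), beside the 5th to 95th percentile of all 12102 genes (grey bar) and their median (black line). Colours give the call by non-overlapping ranges; member medians were -1.16, -1.39, -0.91 and -2.89, and Anln is the only red point.

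The pace per day was computed between the embryonic stages. Between e12.5 and e14.5 the members fell by a median of 0.58 log2 units per day, a halving time of 1.72 days, and between e14.5 and e17.5 by 0.46 per day, a halving time of 2.15 days. Read type changed from 100 bp pairs to single 50 bp reads within the first interval only. A difference in pace between the intervals cannot be told apart from that change. Ccnb1, cyclin B1, was the fastest in both intervals, at -1.08 and -0.76 per day. The slowest were Cdk1 in the first (-0.41) and the spindle checkpoint gene Mad2l1 in the second (-0.24). Relative to the e14.5 level on the linear scale, the median member retained 38.0% at e17.5 (from 20.5% for Ccnb1 to 60.5% for Mad2l1), 22% at P0 (from 8.58% for Ccnb1 to 54.1% for Incenp) and 2.81% in the adult (from 0.619% for Ccnb1 to 152% for Anln). In the adult 31 members were under 5% of their e14.5 level and 5 were over 10%.

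Among the cyclin, CDK and APC/C genes (Cdk1, Ccna2, Ccnb1, Ccnb2, Cdc20 and Ube2c), all 6 were called lower from e12.5 to e14.5 and from e14.5 to e17.5, 3 from e17.5 to P0 and 3 from P0 to the adult. The shares of all genes called lower in these 4 steps were 22.3%, 12.1%, 6.28% and 25.2%. They are the background for the counts of every role group below. Ccnb1 encodes the main partner of Cdk1 at mitotic entry. Its libraries ranged from 6.03 to 6.40 at e12.5 (median 6.17), from 3.34 to 4.31 at e14.5 (4.01), from 1.43 to 2.09 at e17.5 (1.72), from -0.26 to 1.0 at P0 (0.47) and from -3.49 to -0.37 in the adult (-3.32). None of these 5 ranges overlapped, and the differences in the 4 steps were -2.16, -2.29, -1.25 and -3.80. Cdk1 ranged from 5.62 to 6.04 at e12.5 (median 5.86), from 4.62 to 5.46 at e14.5 (5.04), from 2.96 to 3.83 at e17.5 (3.38), from 1.82 to 2.77 at P0 (2.34) and from -3.00 to 1.83 in the adult (-2.23). Its embryonic and P0 ranges were apart from one another, while the highest adult library reached the bottom of the P0 range. Ube2c ranged from 7.67 to 8.07 at e12.5 (median 7.86), from 6.06 to 7.10 at e14.5 (6.47), from 4.72 to 5.31 at e17.5 (5.0), from 3.64 to 4.86 at P0 (3.94) and from -1.47 to 3.17 in the adult (0.08). Only its e17.5 and P0 ranges overlapped. The group retained a median of 16.3% of its e14.5 level at P0 and 1.54% in the adult.

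The kinases and spindle checkpoint genes (Aurka, Plk1, Bub1, Bub1b and Mad2l1) were all called lower in the first 2 steps, 1 of 5 from e17.5 to P0 and 4 of 5 from P0 to the adult. Bub1b, which encodes the checkpoint protein BubR1, had the highest e14.5 median of the group. It ranged from 5.61 to 5.95 at e12.5 (median 5.71), from 4.11 to 4.75 at e14.5 (4.58), from 2.50 to 3.35 at e17.5 (3.05), from 1.83 to 2.56 at P0 (2.10) and from -0.81 to 1.82 in the adult (0.02). Its e17.5 and P0 ranges met at their edges and the others were apart. Bub1, the kinase that marks centromeres for the checkpoint, had the largest difference of the group from e14.5 to P0 (-2.98). Its libraries ran from 4.79 to 5.14 at e12.5 (median 4.89), from 2.99 to 3.83 at e14.5 (3.53), from 1.46 to 2.10 at e17.5 (1.83), from -0.16 to 1.04 at P0 (0.56) and from -3.92 to 0.54 in the adult (-3.59). The overlap of P0 and adult in Bub1 rests on a single adult library, described below.

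The chromosomal passenger complex corrects faulty attachments of chromosomes to the spindle, and its 3 members here took different courses. Aurkb, its kinase, ranged from 5.56 to 5.91 at e12.5 (median 5.70), from 4.16 to 4.97 at e14.5 (4.71), from 2.24 to 3.30 at e17.5 (2.83), from 1.34 to 2.31 at P0 (1.65) and from -2.44 to 1.54 in the adult (-1.37). It retained 12.0% of its e14.5 level at P0. Incenp, the scaffold of the same complex, had medians of 5.83, 4.60, 3.71, 3.72 and 3.29 over the 5 stages. It was called lower in the first 2 steps, then differed by 0.00 from e17.5 to P0, and its adult range of 3.06 to 3.53 overlapped the P0 range of 3.45 to 3.86. It thus retained 40.1% of its e14.5 level in the adult, against 1.48% for Aurkb. Birc5, survivin, was at 3.68%.

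At the centromere and kinetochore (Cenpa, Cenpe, Cenpf, Ndc80, Nuf2 and Spc25), 5 of 6 were called lower from e12.5 to e14.5, all 6 from e14.5 to e17.5, 3 from e17.5 to P0 and 4 from P0 to the adult. Cenpa, the histone H3 variant that defines centromeres, was the gene that overlapped in the first step, where its e12.5 libraries ran from 5.90 to 6.34 (median 6.19) and its e14.5 libraries from 5.11 to 5.94 (5.23). Leaving out e12.5 library 2 or e14.5 library 7 separated these ranges. At e17.5 Cenpa lay between 3.09 and 3.75 (3.45), at P0 between 1.69 and 2.70 (2.32) and in the adult between 0.53 and 2.38 (1.47), again overlapping. Spc25, a subunit of the Ndc80 complex that binds microtubules, ranged from 5.64 to 6.05 at e12.5 (median 5.90), from 4.72 to 5.31 at e14.5 (4.88), from 3.05 to 3.87 at e17.5 (3.27), from 1.54 to 2.51 at P0 (1.86) and from -1.79 to 2.0 in the adult (-1.36). Its difference of -3.02 from e14.5 to P0 was the largest of this group.

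All 9 spindle motors and microtubule factors (Kif11, Kif15, Kif2c, Kif4, Tpx2, Nusap1, Aspm, Ckap2 and Ckap2l) were called lower in the first 2 steps, 3 from e17.5 to P0 and 6 from P0 to the adult. Tpx2, an activator of Aurora A on the spindle, ranged from 6.11 to 6.41 at e12.5 (median 6.18), from 4.51 to 5.08 at e14.5 (5.01), from 3.38 to 4.07 at e17.5 (3.78), from 2.53 to 3.54 at P0 (3.10) and from 0.04 to 2.21 in the adult (0.51). Kif11, the kinesin that pushes spindle poles apart, ranged from 5.62 to 6.00 at e12.5 (median 5.80), from 4.12 to 4.94 at e14.5 (4.64), from 2.61 to 3.32 at e17.5 (3.06), from 1.43 to 2.54 at P0 (1.97) and from -0.97 to 1.64 in the adult (-0.83). Tpx2 overlapped between e17.5 and P0 only, and Kif11 between P0 and the adult only.

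The chromosome structure genes (Top2a, Mki67, Ncapd2, Ncapg, Ncaph, Smc2 and Smc4) were the group in which all 7 members were called lower from P0 to the adult. All 7 were lower from e12.5 to e14.5, 6 from e14.5 to e17.5 and 2 from e17.5 to P0. Top2a ranged from 7.14 to 7.58 at e12.5 (median 7.32), from 5.42 to 6.37 at e14.5 (6.05), from 3.93 to 4.70 at e17.5 (4.42), from 2.95 to 3.94 at P0 (3.41) and from -1.43 to 2.80 in the adult (-0.59). Its e17.5 and P0 ranges touched at their edges. Mki67, which encodes the Ki-67 protein coating mitotic chromosomes, ranged from 5.65 to 6.15 at e12.5 (median 5.85), from 3.66 to 5.06 at e14.5 (4.57), from 2.59 to 3.80 at e17.5 (3.33), from 2.09 to 3.06 at P0 (2.70) and from -2.48 to 1.62 in the adult (-2.08). It was wide within e14.5 and e17.5, and these ranges overlapped. Leaving out e17.5 library 2 separated them. Its difference of -4.77 from P0 to the adult was the largest among the members. Ncapg, a condensin I subunit, ranged from 4.59 to 4.88 at e12.5 (median 4.73), from 2.84 to 3.77 at e14.5 (3.50), from 1.06 to 2.37 at e17.5 (1.58), from 0.15 to 1.24 at P0 (0.38) and from -3.16 to 0.05 in the adult (-2.46). Within condensin, Ncapd2 stayed highest: its medians were 6.65, 5.61, 4.53, 4.40 and 2.63, and 12.7% of the e14.5 level was left in the adult, against 1.60% for Ncapg.

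Of the cytokinesis genes (Kif20a, Kif20b, Kif23, Ect2, Anln, Prc1 and Racgap1), all 7 were called lower from e12.5 to e14.5, 6 from e14.5 to e17.5, 3 from e17.5 to P0 and 5 from P0 to the adult, where 1 was called higher. Racgap1, a component of centralspindlin at the midzone, ranged from 6.64 to 6.88 at e12.5 (median 6.75), from 5.24 to 5.78 at e14.5 (5.60), from 4.20 to 4.63 at e17.5 (4.39), from 3.60 to 4.31 at P0 (3.91) and from 2.33 to 3.43 in the adult (2.77). Ect2, the guanine nucleotide exchange factor that centralspindlin recruits to activate RhoA, ranged from 5.41 to 5.66 at e12.5 (median 5.52), from 3.47 to 4.31 at e14.5 (4.03), from 2.11 to 2.64 at e17.5 (2.25), from 0.66 to 1.84 at P0 (1.25) and from -2.72 to 0.96 in the adult (-2.32). At P0 31.0% of the e14.5 level was left for Racgap1 and 14.6% for Ect2, and in the adult 14% and 1.22%. Kif20b overlapped between e14.5 (1.83 to 2.86, median 2.48) and e17.5 (1.01 to 2.0, median 1.58), and the ranges were apart without e14.5 library 2 or without e17.5 library 2. Its other medians were 3.71 at e12.5, 0.72 at P0 and -2.24 in the adult.

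Anln was the member called higher after birth. Its libraries ranged from 3.80 to 4.16 at e12.5 (median 3.88), from 2.30 to 3.0 at e14.5 (2.79), from 1.10 to 1.81 at e17.5 (1.48) and from 0.36 to 1.18 at P0 (0.70), as the other cytokinesis genes did, and then from 2.73 to 3.82 in the adult (3.39). The rise from P0 was 2.70 log2 units, with the ranges apart, and the call and its direction were the same under quantile normalization, median centring and log2(RPKM + 1). The myelin markers Mbp, Mag, Mog and Mal, genes of myelinating oligodendrocytes, were also called higher from P0 to the adult, Mbp from 2.59 to 8.68 and Mag from -0.35 to 6.63. The 6 adult libraries had Anln at 2.73, 3.58, 3.51, 3.82, 3.27 and 3.08 and Mbp at 7.80, 8.66, 8.69, 9.57, 7.92 and 8.76, in table order. The lowest and the highest library were the same for both genes. The part of myelinating cells in the adult level of Anln was not tested. The genes whose levels over the 44 libraries were most like those of Anln, picked after its values were seen, were Wee1, the kinase that holds Cdk1 inactive (Pearson's r 0.98, stage medians 4.36, 3.42, 1.89, 1.11 and 3.54), and Zfp367, a zinc finger gene (r 0.98, medians 3.52, 2.64, 1.62, 0.94 and 3.26). Both dipped to their lowest at P0, as Anln did. These r values describe libraries that share stages, and no p is given.

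The other 42 members ran close to the mean of the set, of which each is a part. Over the 44 libraries, Pearson's r with the mean of the standardised members was lowest for Anln (0.36), then Incenp (0.90), Cenpa (0.94), Mad2l1 (0.95) and Ckap2l (0.96). Mad2l1, whose product restrains the APC/C until all chromosomes are attached, had medians of 5.83, 4.53, 3.80, 3.07 and 2.54, and 25.1% of its e14.5 level was left in the adult. The 8 genes outside the set that were most like the mean were Cdca8, Mcm6, Tmpo, Kntc1, Fignl1, Uhrf1, Rbl1 and Hmmr, with r from 0.994 to 0.997. Cdca8, which encodes the passenger complex subunit borealin, had stage medians of 6.58, 5.26, 3.96, 3.21 and 0.48. Mcm6, a subunit of the replicative helicase, had 6.72, 5.61, 4.53, 3.90 and 1.95. Because levels of all these genes follow age, such r values over 5 stages are a description.

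Adult library 1 stood apart from the other 5 adult libraries. Its median over the members was 1.62, against -0.98 to -0.58 in the others, it was the highest adult library for 40 of the 43 genes, and for 12 of the 43 it lay within the P0 range. Mki67 was at 1.62 there and between -2.48 and -1.64 in the others. Without this library 40 members were called lower from P0 to the adult and 1 higher, against backgrounds of 30% and 31.2%, the median difference was -2.95, and the genes that still overlapped were Incenp and Cenpa. The cyclin, CDK and APC/C genes were then 6 of 6 lower and the spindle group 9 of 9. Its other markers also differed: the median of the 6 intermediate progenitor markers was 2.79 there and between -0.20 and 0.09 in the others, Dcx, a gene of young neurons, was at 6.15 against an adult median of 1.71, and the myelin gene Mal was at 5.92 against 6.69 to 7.26. Radial glia markers, at 4.12, were within the range of the others (3.61 to 4.29). Anln was lowest in this library. The part of tissue composition in these values was not tested.

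**Figure D3:**
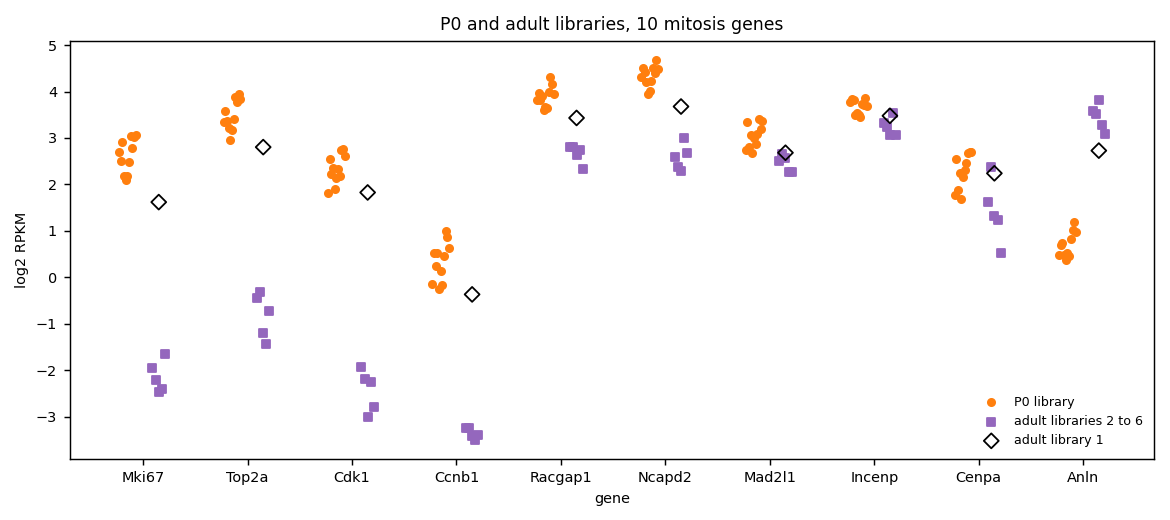
Levels in log2 RPKM (y axis) of 10 mitosis genes (x axis) in the 11 P0 libraries (orange), adult libraries 2 to 6 (purple squares) and adult library 1 (open diamond), 1 point per library. For Mki67, Top2a, Cdk1 and Ccnb1 the diamond sits far above the other adult libraries; for Anln it is the lowest adult point, at 2.73.

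Within a stage the members went up and down together. The mean Pearson's r over all pairs of members was 0.65 over the 8 libraries of e12.5, 0.67 at e14.5, 0.62 at e17.5 and 0.77 at P0, where the same over all genes was at most 0.01. In the adult it was 0.73, and 0.05 without library 1, over 5 libraries. A few libraries held many of the extremes. At e14.5 the library medians ran from 3.91 to 4.54, and library 2, at 3.91, was the lowest for 37 of the 43 genes. At e17.5 they ran from 2.65 to 3.32: library 1 was highest for 26 genes and library 10 lowest for 26. At P0 they ran from 1.79 to 2.55, with library 5 lowest for 25 genes and library 10 highest for 20. These libraries hold both genotypes in an order not read here, so a difference of genotype and other differences between animals or libraries cannot be told apart within a stage.

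**Figure D4:**
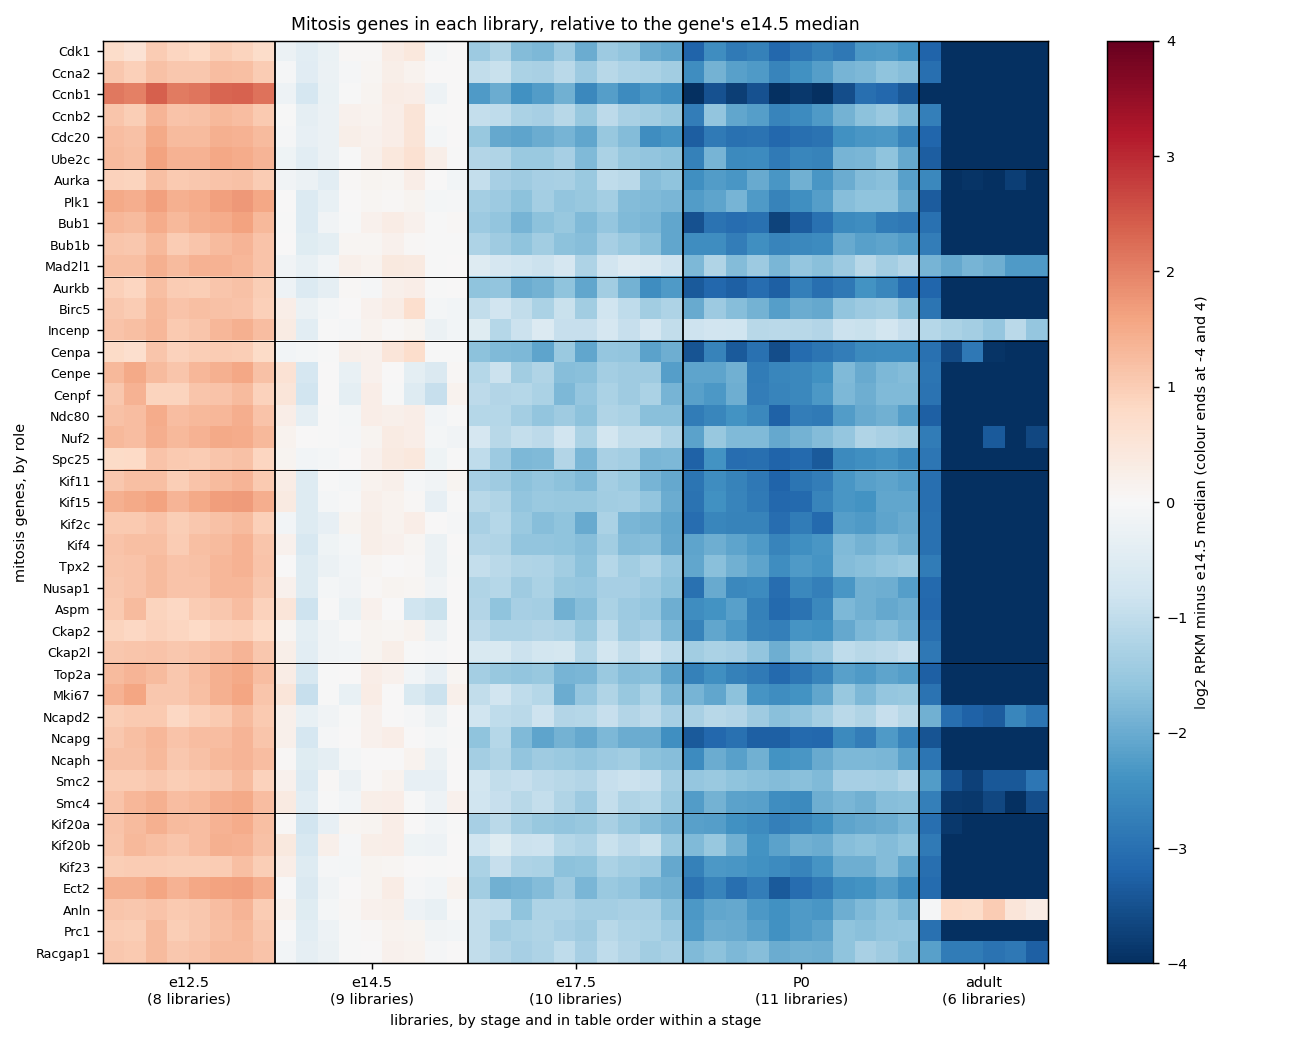
Each of the 43 mitosis genes (rows, by role) in each of the 44 libraries (columns, by stage), coloured by log2 RPKM minus the gene's e14.5 median, with the colour ending at -4 and 4. Colours pass from red at e12.5 to dark blue in the adult, adult library 1 is paler than its neighbours, Anln is pale red in adult libraries 2 to 6, and e14.5 library 2 is bluer than the rest of its stage.

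In several of these libraries, cell type markers were at an extreme of their stage too. The e14.5 library 2 also had the lowest medians of the 8 radial glia markers (5.18, others 5.30 to 5.60) and of the 6 intermediate progenitor markers (4.89, others 5.11 to 5.42), and the highest of the 5 astrocyte markers (-0.72, others -2.43 to -1.46), while its neuron markers, at 7.33, were within the range of the others. The astrocyte medians at e14.5 were all negative on the log2 scale, low levels with no stated counting error. The e17.5 library 10 had the lowest radial glia median (4.70, others 4.91 to 5.21) but not the lowest intermediate progenitor median (3.94), and it was also the lowest of its stage for markers of oligodendrocyte precursors (2.93), microglia (1.59) and endothelium (3.01). P0 library 5, low in the members, had the lowest intermediate progenitor median (2.11) and the highest of the 5 astrocyte markers (4.21) and of the 4 microglia markers detected (2.25). P0 library 10 had the highest intermediate progenitor median (3.87) and the lowest astrocyte (2.83) and microglia (1.24) medians. Between these P0 libraries Chd8 was at 3.81 and 4.44, and in e14.5 library 2 at 4.19, above the stage median of 4.01. The part of cell composition, dissection or age within a stage in the spread of the mitosis genes was not tested.

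**Figure D5:**
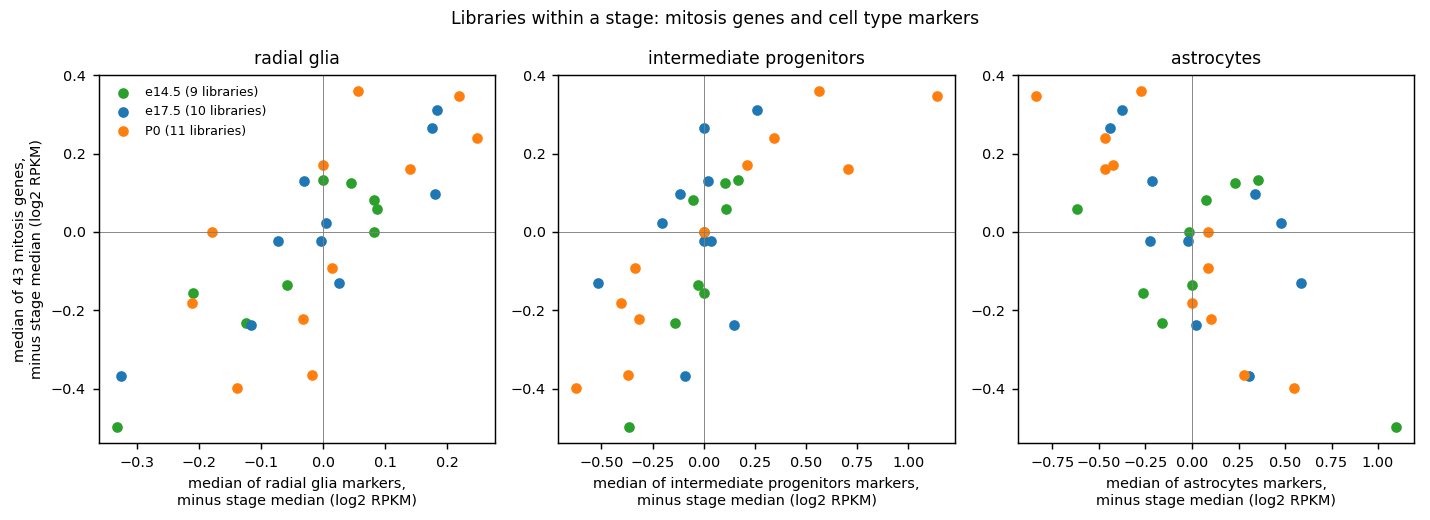
Each point is a library of e14.5 (green, 9), e17.5 (blue, 10) or P0 (orange, 11): its median over the 43 mitosis genes (y axis) against its median over radial glia, intermediate progenitor or astrocyte markers (x axis), all in log2 RPKM minus the stage median. Points run upward in the radial glia panel, P0 points run upward in the intermediate progenitor panel and downward in the astrocyte panel, and e14.5 library 2 is the lowest green point. Pearson's r with the radial glia median was 0.90 at e14.5, 0.87 at e17.5 and 0.69 at P0. It was -0.02 at e12.5 and 0.35 in the adult, stages not shown. Without the 2 libraries farthest from their stage median on the y axis, r with radial glia was 0.75 (e14.5), 0.72 (e17.5) and 0.72 (P0). Over all libraries of these stages, r with intermediate progenitors was 0.91, 0.33 and 0.91. With astrocytes it was -0.47, -0.59 and -0.91.

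The count of 16 genes lower from e17.5 to P0 depended on the libraries used. The e17.5 columns carry sample numbers of 2 series, S158 to S163 (libraries 1 to 5) and S1 to S5 (libraries 6 to 10), whose meaning the labels do not give. The member medians ran from 2.99 to 3.32 in the first series and from 2.65 to 3.28 in the second, 42 of the 43 genes had a lower median in the second, by a median of 0.20, and 0 of them were apart. Over all genes 6076 of 12102 were lower in the second and the ranges of 1 of 12102 were apart, so the 0 among the members does not set them off. Against the first series alone 36 members were called lower at P0, where 11.1% of all genes were, and against the second alone 16, where 8.18% were. Leaving out e17.5 library 10 gave 26 members (7.32% of all genes) and leaving out P0 library 10 gave 23 (6.84%). With fewer libraries, ranges are apart more easily for every gene.

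Lists of other cell cycle genes, set up with the members, mostly shared the direction. From e14.5 to P0, 23.1% of all genes were called lower and 22.7% higher. Of 48 further genes of dividing cells 42 were called lower and 1 higher, with a median difference of -2.02. Cdca3, an adaptor that promotes mitotic entry, went from 5.72 to 3.69, and Cks1b, a CDK-binding subunit, from 5.52 to 3.82. Zwint, a kinetochore protein, was the one called higher, from 5.86 to 6.80. Of 15 activators of mitotic genes 13 were lower and 0 higher (median -0.93), among them the NF-Y subunits Nfya (from 5.14 to 4.64) and Nfyb (from 5.30 to 4.50) and the MuvB subunit Rbbp4 (from 6.83 to 5.54). All 8 G1 cyclins and CDKs in the table were lower (median -1.18), including Cdk4 (from 8.91 to 7.20), Ccnd2 (from 6.99 to 5.07) and Ccnd1 (from 4.77 to 3.70).

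The 5 remaining lists had medians between -1.11 and -0.45. Of all genes, 23.1% were called lower from e14.5 to P0 and 22.7% higher. From e14.5 to P0, 9 of 13 core APC/C subunits were lower and 0 higher, with a median difference of -0.49: Anapc5 went from 7.43 to 6.93 and Cdc16 from 6.30 to 5.70, while the ranges of Anapc13 overlapped (6.21 and 6.23). Cohesin, which holds sister chromatids together and folds interphase chromatin, had 5 of 10 lower and 0 higher (median -0.45), with Rad21 at 6.50 and 6.04 called lower and Smc1a (5.88 and 5.61) and Smc3 (5.22 and 5.09) overlapping. Condensin II and other kinetochore proteins had 8 of 13 lower and 0 higher (median -1.11), with Bub3 at 6.09 and 5.62 called lower and Ncaph2 (5.52 and 4.96) and Cenpt (4.87 and 4.58) overlapping. Centrosome and microcephaly genes had 7 of 14 lower and 0 higher (median -0.73), with Nde1 at 4.96 and 2.95 called lower and Tubg1, gamma-tubulin (5.37 and 5.16), and Ckap5 (5.73 and 5.29) overlapping. Of 11 CDK inhibitors and genes of cell cycle exit 5 were lower and 1, Rbl2, a pocket protein of the DREAM complex, was higher by 0.32 (median -0.77), with Gadd45g at 5.57 and 4.29 called lower and the inhibitors Cdkn1b (5.73 and 5.58) and Cdkn1c (6.57 and 5.80) overlapping.

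From P0 to the adult, where 25.2% of all genes were called lower and 29.3% higher, the further genes of dividing cells were lower in 23 of 48 and higher in 2, Pttg1 (securin, 2.04) and Cit (citron kinase, 1.78), with a median of -1.89. Without adult library 1 these counts were 40 and 3, with Zwint as the third (0.57). Among the activators 6 of 15 were lower and 3 higher (Lin52 by 1.27, E2f1 by 0.55 and E2f3 by 0.63), and among the G1 genes 3 of 8 were lower, Cdk4 from 7.20 to 5.04 among them, and 2 higher (Ccnd1 by 0.75 and Ccne1 by 1.25). The shares called higher in these lists were below that of all genes, and the genes named here as higher were picked after their calls were seen.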

How the data were processed

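Members, role groups, gene lists and the call were chosen with earlier results of these data known. The deposited table holds 1 log2 RPKM value per gene and library. The base of 2 was read from the spacing of low values. The submitters' processing notes name STAR 2.4.2a, bcl2fastq and the build mm9 with no roles, and the protocols in the labels name stranded polyA libraries. No source at hand gives the counter, annotation, gene filter or scaling, so reads of near-identical copies and overlapping genes may be shared, and any such member's level is uncertain to that extent. Library totals are unknown. Steps of low values gave relative depths of 0.93 to 3.02 for the 8 e12.5 libraries, 0.60 to 1.13 for the 9 at e14.5 and 0.75 to 0.95 for 3 at P0, and no estimate for the 10 at e17.5 and all but 1 adult. No p-value is given, since the columns were not mapped to labelled samples and each stage mixes genotypes. Gene values were compared between stages by whether library ranges overlapped (Python 3.11.15, pandas 2.3.3). The call was also run on simulated libraries with independent genes and the earlier stage's spread in both stages. The data differ in both respects, so that run gives no error rate for the calls here. Differences are of stage medians, and no value was imputed or dropped except where stated. Members are named by their level and difference within a role, and by overlap or direction against the rest. Further members and genes outside the set that were singled out after their values were seen are Incenp, Mad2l1, Ncapd2, Aspm, Birc5, Wee1 and Zfp367. Alternatives were quantile normalization, median centring, a pseudocount, filters, a stricter call and leaving out each library. The ChIP summits were not used here.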

Additional observations from a re-analysis of the deposited data

Results flagged for a closer look

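Of 176 sets tested (each member and the members' median, in each stage of at most 10 libraries), 32 had a library far from the others by Dixon's criterion, where chance gives about 8.8, or 1 in 20. The members share libraries and vary together within a stage, so the sets are not independent. The count of 32 is therefore no measure of an excess over chance. Adult library 1 accounted for 25 of them, each time as the highest. In that library the cell cycle regulators were at 1.83 (Cdk1), 2.58 (Ccna2), -0.37 (Ccnb1), 2.08 (Cdc20) and 3.17 log2 RPKM (Ube2c). Kinase, checkpoint and passenger genes were at 1.85 (Aurka), 1.12 (Plk1), 0.54 (Bub1), 1.54 (Aurkb) and 0.48 (Birc5). Spindle and kinetochore genes were at 0.21 (Cenpf), 1.64 (Kif11), 0.998 (Kif2c), 2.21 (Tpx2), 1.74 (Nusap1), -0.39 (Aspm), 1.10 (Ckap2) and 1.45 (Ckap2l). Chromosome structure genes were at 2.80 (Top2a), 1.62 (Mki67), 0.050 (Ncapg) and 2.33 (Smc4), and cytokinesis genes at 0.96 (Ect2) and 2.28 (Prc1). Its median over the members was 1.62.

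Low values in e14.5 library 2 stood apart for Nusap1 (4.33), Ncapg (2.84), Kif23 (3.36) and Ect2 (3.47). High values in e12.5 library 7 stood apart for Smc2 (5.68) and Kif23 (5.08). Mad2l1 was low in e17.5 library 6 (3.29). P0, with 11 libraries, was not tested in this way.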

How the results depend on the processing

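Over the alternatives tried, 237 of 241 recomputed counts and medians kept their direction and stayed within the limit set for them (for a count, within 1.5 times the main count). The exceptions were the number of members lower from e17.5 to P0, which was 9 when a 2-fold difference was also asked for, 36 with the e17.5 libraries S158 to S163 only (chosen after seeing the data) and between 16 and 26 when each library was left out, and the median difference from P0 to the adult, which was -1.47 on the log2(RPKM + 1) scale, where levels below 0 are compressed by construction. Leaving out each library gave 42 to 43 members lower from e12.5 to e14.5, 41 to 43 from e14.5 to e17.5, 30 to 40 from P0 to the adult and 43 from e14.5 to P0. Leaving out a library can only narrow a range, so these counts could not fall below those with all libraries. The other filters kept all 43 members, so they could not change a count either. Such counts are among the 241 and do not test the calls. From P0 to the adult 37 members were lower with quantile normalization, Incenp among them, and 34 with median centring. Shares of all genes called lower were not computed under the other scalings or the 2-fold call. For omitted libraries they were computed only where given above, so the other counts have no background. No paired analysis was possible because the columns carry no genotype or labelled replicate number. Depth is unknown for most libraries, so low adult values, with 28 medians below 0, have no stated counting error.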
